A study of Ovis aries with 16 samples.

Results

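MYH7, TPM1 and TNNC2 are 3 genes of the sarcomere, the contractile unit of striated muscle, among 1028 genes that could be named on a sheep array. Every array probe was taken that the scanner files name for them, directly or under another name, by gene name, sequence name or description. This gave 5 of the 15008 non-control probes: 2 for MYH7, 1 for TPM1 and 2 for TNNC2. Total RNA of the left ventricle was measured in 8 pairs of fetal sheep twins (16 fetuses), 1 array per fetus and 4 fetuses in each of 4 groups. In twin sets 1 to 4, 1 fetus was infused with losartan, which blocks the type 1 receptor of angiotensin II, and its twin was untreated. In twin sets 5 to 8, 1 fetus was infused with angiotensin II itself, a peptide that constricts vessels and raises blood pressure, and its twin was untreated. Catheters were placed at 125 to 126 days of gestation (term 145 days) and hearts were taken after 5 days of treatment. The labels give no dose and do not say whether the untreated twins carried catheters. They call the infusions both daily and continuous, and the tissue the free wall with and without the septum.

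In the sarcomere, myosin of the thick filament pulls on actin of the thin filament, and calcium switches this on through troponin and tropomyosin. MYH7 encodes the slow, or beta, myosin heavy chain, the main motor of the ventricle of large mammals and of slow skeletal fibres. TPM1 encodes alpha-tropomyosin, which lies along the thin filament and covers the myosin sites on actin at rest. TNNC2 encodes the calcium-binding troponin C of fast skeletal muscle, while the ventricle normally uses the slow and cardiac form from the gene TNNC1. The balance of myosin heavy chains and the size of the heart muscle respond to load and to angiotensin II in several species, which is why the level of such genes under infusion and receptor blockade is of interest.

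The 5 oligonucleotides are shown because what each can and cannot tell apart bears on every value that follows. All are 60 bases long, 5′ to 3′, as the scanner files give them. The 2 TNNC2 probes are the same stretch shifted by 1 base, and capitals mark the 59 bases they share, so they are a repeat reading of 1 site and not 2 independent ones.
TNNC2, A_70_P029962 (brighter): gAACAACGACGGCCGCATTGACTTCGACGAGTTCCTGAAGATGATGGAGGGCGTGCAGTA
TNNC2, A_70_P029961 (dimmer): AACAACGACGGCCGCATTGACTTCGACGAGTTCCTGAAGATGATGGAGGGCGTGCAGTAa
TPM1, A_70_P024291: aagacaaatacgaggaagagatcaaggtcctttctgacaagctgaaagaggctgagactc
MYH7, A_70_P026016 (dimmer): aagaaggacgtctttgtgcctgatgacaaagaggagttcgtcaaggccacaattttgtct
The MYH7 probes start at bases 185 and 659 of 1 expressed sequence and do not overlap. For the brighter of them and a probe of MYH2, a fast skeletal myosin heavy chain, capitals mark the longest run of bases they have in common.
MYH7, A_70_P026017 (brighter): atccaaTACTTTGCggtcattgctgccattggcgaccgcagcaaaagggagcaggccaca
MYH2, A_70_P041861: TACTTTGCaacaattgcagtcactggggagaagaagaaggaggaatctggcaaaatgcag
Aligned on that run of 8 bases, the 2 myosin probes are identical at 31 of 54 positions (57.4%). The array calls 2 probes the ovine slow myosin heavy chain, and they were taken as MYH7 from that name. The reference gene table used for names holds no row for MYH7. No probe named for MYH6, the alpha heavy chain of heart muscle, is on the array, so whether RNA of that close relative also binds the MYH7 probes was not tested. No probe is named for TNNC1 either. The 1 TPM1 probe cannot tell splice forms apart that share its stretch.

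Levels are given as the log2 of the processed fluorescence signal minus the log2 of the 75th percentile of its array, so that 0 is the 75th percentile and a step of 1 is a doubling. They compare 1 probe between fetuses and do not rank genes against each other. The 75th percentile was 1101 to 1672 fluorescence units, and the share of probes well above background ran from 57.3% (8602 probes) to 64.1% (9617 probes) per array. All 5 probes were well above background on all 16 arrays and none was saturated. Testing was limited to the 8971 probes that were so on every array of at least 1 group. With 4 fetuses a group, the number of arrays limits the precision. In whole tissue, fewer cells of a type and less RNA per cell cannot be told apart.

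On 3 arrays, those of the angiotensin II fetuses of sets 7 and 8 and of the untreated fetus of set 2, the bright control spots at the corners stood apart. Their log2 signal there was 17.24 to 17.73, against 14.40 to 15.36 on the other 13 arrays. All 3 lie in array row 2 of slide 2. Results are therefore given with and without twin sets 2, 7 and 8. Of the losartan arm, slide 1 holds 1 treated and 3 untreated fetuses and slide 2 the reverse, while the angiotensin II arm has 2 of each on both slides.

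MYH7, the motor of the thick filament, was high on exactly those 3 arrays. With the brighter probe, its log2 level was 1.43, 1.29, 0.74 and 0.78 in the losartan fetuses of sets 1 to 4, against 1.42, 3.06, 1.22 and 1.34 in their untreated twins. Only the untreated fetus of set 2 lies far from the rest here, and the groups overlap. In sets 5 to 8 the level was 1.13, 1.08, 2.64 and 2.94 in the angiotensin II fetuses and 1.40, 1.19, 1.20 and 1.54 in their untreated twins. The angiotensin II group splits into a low pair, below each of its own untreated twins, and a high pair, above every untreated twin of sets 5 to 8.

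The dimmer MYH7 probe, in another part of the transcript, showed the same 3 arrays. It read 1.92 to 2.34 on them and -0.40 to 0.47 on the other 13. The brighter probe read 2.64 to 3.06 on the 3 and 0.74 to 1.54 on the 13. For both probes the lowest of the 3 thus lies above the highest of the 13, by 1.45 (dimmer) and 1.10 (brighter) on the log2 scale. Such a separation was common, since 1018 of the 8971 tested probes (11.3%) were higher on all 3 arrays than on each of the others, but only 15 and 30 probes had a wider gap than the dimmer and the brighter MYH7 probe. The remaining array of that row, of the losartan fetus of set 4, had a corner signal of 15.29 and an MYH7 level of 0.78. The part of the array in the MYH7 values was not tested.

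**Figure D1:**
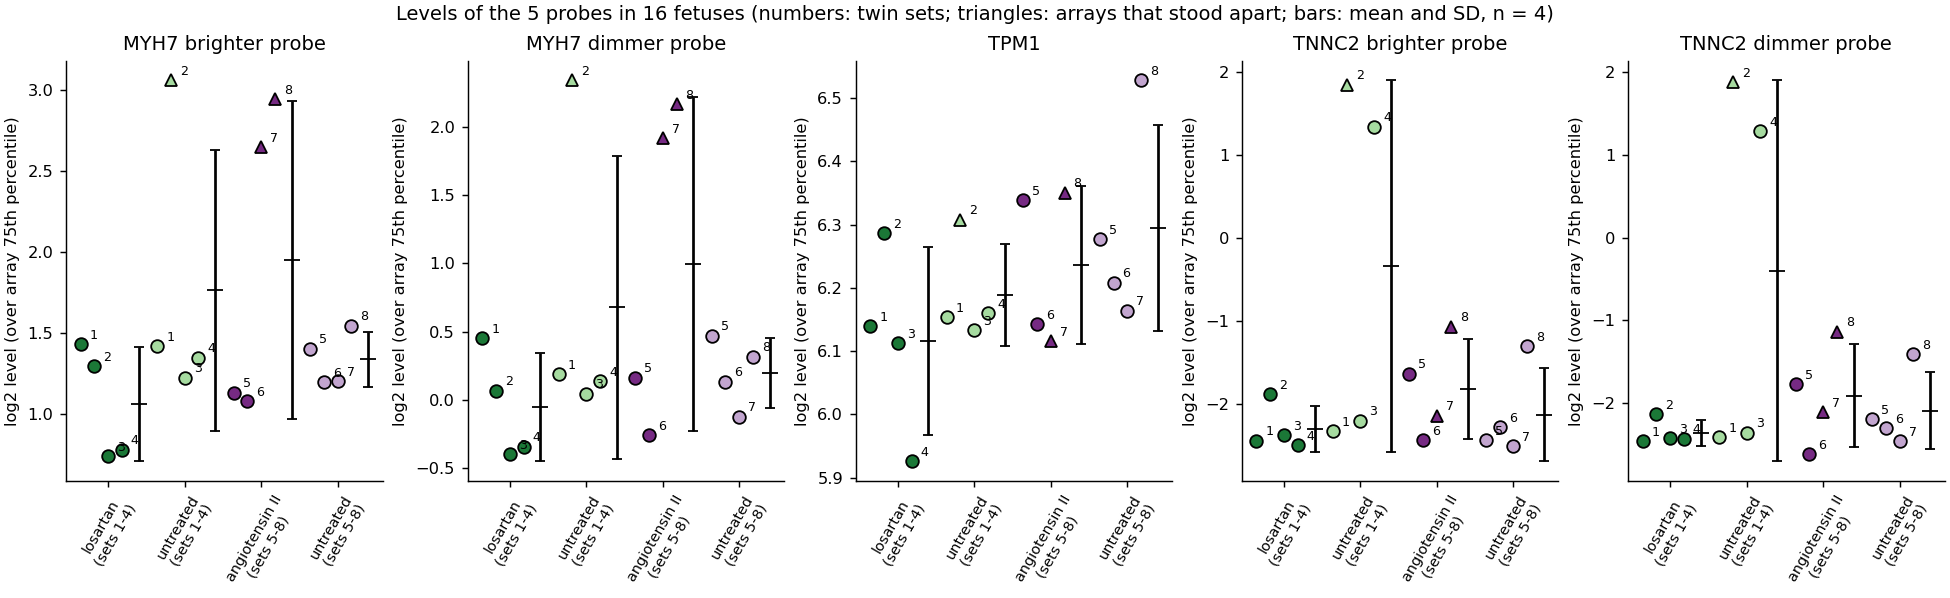
Log2 level of each of the 5 probes (vertical axis, over the array's 75th percentile) in the 4 groups, with 1 point per fetus labelled by its twin set, triangles for the 3 arrays that stood apart, and bars for the mean and SD of 4 fetuses. Both MYH7 probes put the 3 triangles above all circles, TPM1 stays between 5.93 and 6.53, and TNNC2 is high in the untreated fetuses of sets 2 and 4.

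**Figure D2:**
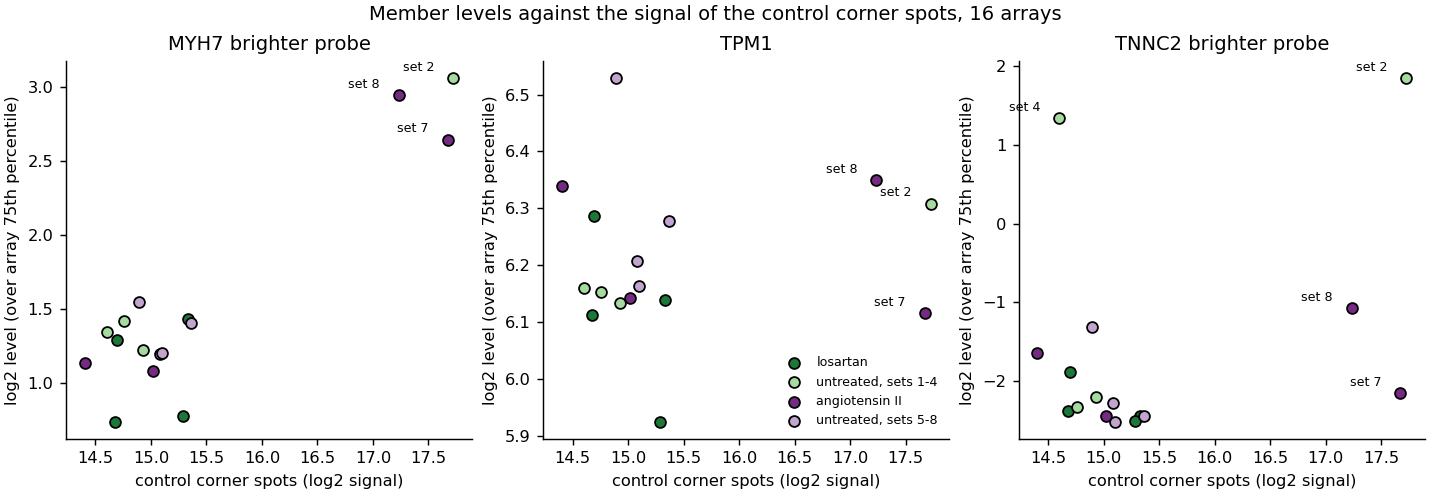
Log2 level of MYH7, TPM1 and TNNC2 (vertical axes) against the log2 signal of the control corner spots (horizontal axis), 1 point per array, coloured by group. The MYH7 levels of 2.64 to 3.06 belong to the 3 arrays with corner signals of 17.24 to 17.73, while the high TNNC2 level of set 4 has a corner signal of 14.60.

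The mean MYH7 level was 1.06 ± 0.35 in losartan fetuses and 1.76 ± 0.87 in their untreated twins (SD, n = 4 each, brighter probe). It was 1.95 ± 0.98 in angiotensin II fetuses and 1.33 ± 0.17 in their untreated twins (SD, n = 4 each). In order of these means the groups run losartan, untreated twins of sets 5 to 8, untreated twins of sets 1 to 4, angiotensin II, and each step between neighbours is smaller than the larger of the 2 SDs. Without twin sets 2, 7 and 8 the mean was 0.98 ± 0.39 in losartan fetuses and 1.33 ± 0.10 in their untreated twins (SD, n = 3 each), and 1.10 ± 0.04 in angiotensin II fetuses and 1.30 ± 0.15 in their untreated twins (SD, n = 2 each). With these sets left out, the losartan and angiotensin II groups both averaged below their untreated twins.

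Within twin pairs, the losartan fetus differed from its twin in MYH7 by 0.01, -1.77, -0.49 and -0.57 on the log2 scale in sets 1 to 4. The angiotensin II fetus differed from its twin by -0.27, -0.12, 1.45 and 1.40 in sets 5 to 8. The 3 ratios beyond 1 in size are those with an array that stood apart, in set 2 in the untreated twin and in sets 7 and 8 in the treated one. The ratios of the 2 MYH7 probes had the same sign in 8 of 8 sets, and their levels correlated at 0.99 over 16 arrays and 0.88 over the 13 (Pearson r across arrays that share slides).

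Across all probes, limma fitted both treatments together with the twin set as a block, and adjusted p-values by Benjamini-Hochberg over the 8971 tested probes. None of the 5 member probes passed the threshold of 0.05 in any of 4 comparisons. With losartan 1.20% of all tested probes passed, with angiotensin II 0% (0 probes; 937 had an unadjusted p under 0.05, 10.4%). For the difference between the treatments 1.63% passed, and between the untreated twins of the arms 0% (0 probes; 300 had an unadjusted p under 0.05, 3.34%). At an unadjusted p under 0.05, 2 of 5 member probes are counted with losartan (background 12.3%), 0 of 5 with angiotensin II and 3 of 5 for the difference (background 20.9%), and the 2 TNNC2 probes that make up most of these read 1 site. No member probe had groups without overlap, against 6.84% of tested probes with losartan and 4.02% with angiotensin II.

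For MYH7 the estimate with losartan was -0.70 (SE 0.35, 95% interval -1.48 to 0.07, limma adjusted p = 0.453) and with angiotensin II 0.61 (SE 0.35, 95% interval -0.16 to 1.39, limma adjusted p = 0.509). The angiotensin II effect exceeded the losartan effect by 1.32 (SE 0.49, 95% interval 0.22 to 2.41, limma adjusted p = 0.184). An exact two-sided permutation test of the 4 angiotensin II ratios against the 4 losartan ratios gave p = 0.0857, where the smallest p that 70 arrangements allow is 0.0286. Without sets 2, 7 and 8 the angiotensin II estimate changed sign to -0.19 (SE 0.17, limma adjusted p = 0.981), and the losartan estimate was -0.35 (SE 0.14, limma adjusted p = 0.374). The difference then was 0.15 (SE 0.22, limma adjusted p = 0.823).

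The values within each slide are given as a description, since on a slide most fetuses lack their twin and the twin block had to be dropped. In slide 1 the losartan fetus of set 3 differed from the mean of the untreated fetuses of sets 1, 3 and 4 by -0.59 in MYH7. In slide 2 the mean of the losartan fetuses of sets 1, 2 and 4 differed by -1.89 from the 1 untreated fetus of their arm there, that of set 2, whose array is one of the 3 that stood apart. The angiotensin II fetuses differed from untreated fetuses of their arm by -0.09 in slide 1 (sets 5 and 6 against 6 and 7) and by 1.32 in slide 2 (sets 7 and 8 against 5 and 8). Both angiotensin II arrays of slide 2 are among the 3 as well. Once slide was added to the twin block over all 16 arrays, the difference of the effects was 1.74 (SE 0.39, limma adjusted p = 0.045, against 4.75% of tested probes called in that fit). With array row added too, it was 1.49 (SE 0.50, limma adjusted p = 0.219). In the deposited value table losartan passed, at -1.05 (limma adjusted p = 0.026, 4.84% of tested probes called), and the difference at 1.61 (limma adjusted p = 0.012, 19.3% called).

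**Figure D3:**
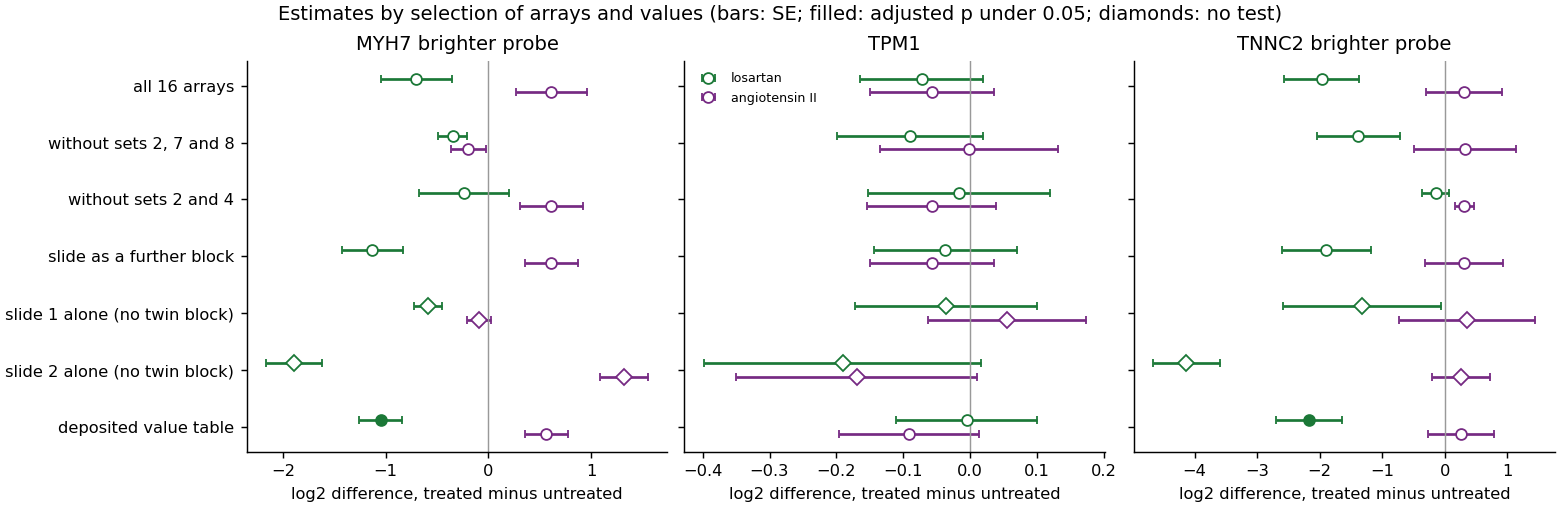
Estimates with SE (horizontal axes, log2 difference, treated minus untreated) of MYH7, TPM1 and TNNC2 for losartan and angiotensin II, by the arrays or values used, with filled circles where the adjusted p is under 0.05. Circles are differences within twin pairs, and diamonds are group differences on 1 slide with no twin block, with an SE pooled over the groups of the slide and no test. The filled circles are losartan in the deposited value table for MYH7 and TNNC2.

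TPM1, the tropomyosin of the thin filament, was close to level over all fetuses. Its log2 level was 6.14, 6.29, 6.11 and 5.93 in the losartan fetuses of sets 1 to 4, against 6.15, 6.31, 6.13 and 6.16 in their untreated twins. It was 6.34, 6.14, 6.12 and 6.35 in the angiotensin II fetuses of sets 5 to 8, against 6.28, 6.21, 6.16 and 6.53 in their untreated twins. The 4 groups overlap, and the 3 arrays that stood apart lie among the others for this gene. Over the 16 arrays TPM1 spanned 0.60 on the log2 scale, less than the median span of 0.86 over all tested probes, and 79.5% of them spanned more.

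The losartan fetus was lower than its twin in TPM1 in 4 of 4 sets, by small amounts. The ratios were -0.01, -0.02, -0.02 and -0.23 in sets 1 to 4, and 0.06, -0.07, -0.05 and -0.18 in sets 5 to 8. The largest fall, in set 4, corresponds to a signal 0.85 times that of the untreated twin. The estimate was -0.07 with losartan (SE 0.09, 95% interval -0.28 to 0.13, limma adjusted p = 0.793) and -0.06 with angiotensin II (SE 0.09, 95% interval -0.26 to 0.15, limma adjusted p = 0.794). For this 1 probe, both 95% intervals lie within 0.3 on the log2 scale either way. Its signal was 78384 to 117871 fluorescence units, and whether it responds in proportion at that height was not tested. The difference of the effects was 0.02 (SE 0.13), its sign turned under several scalings, and the exact permutation p over the ratios was 0.8.

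The array holds 2 more probes built on expressed sequences that the TPM1 probe's own entry lists as matches, though no name or description ties them to TPM1, and so they are not counted with the 5. The first, A_70_P001771, had levels of 4.18 to 4.91, r = 0.86 with TPM1 over the 13 arrays, and twin ratios of -0.34 to 0.23. The second, A_70_P048206, had levels of 0.54 to 1.80 and r = 0.29 with TPM1 over the same 13. Neither passed with losartan (estimates -0.18 and -0.21) or angiotensin II (0.02 and -0.23). In limma the adjusted p of the first was 0.516 with losartan and 0.931 with angiotensin II, and of the second 0.724 and 0.629.

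TNNC2, the fast skeletal troponin C, was low in 14 of the fetuses and many times higher in 2 untreated ones. With the brighter probe, its log2 level was -2.45, -1.89, -2.39 and -2.50 in the losartan fetuses of sets 1 to 4, against -2.33, 1.85, -2.21 and 1.34 in their untreated twins. In sets 5 to 8 it was -1.64, -2.44, -2.15 and -1.07 in the angiotensin II fetuses, against -2.44, -2.28, -2.51 and -1.31 in their untreated twins. The untreated fetuses of sets 2 and 4 thus stand clear of the other 14, whose highest value is the -1.07 of the angiotensin II fetus of set 8. In fluorescence units the 2 read 5265 and 3598, and the other 14 lay between 218.6 and 640.6.

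The losartan fetus differed from its untreated twin in TNNC2 by -0.11, -3.74, -0.18 and -3.84 on the log2 scale in sets 1 to 4. In sets 2 and 4 that is 13.3-fold and 14.4-fold lower than the untreated twin, and in sets 1 and 3 1.08-fold and 1.13-fold. With angiotensin II the ratios were 0.81, -0.16, 0.37 and 0.23 in sets 5 to 8. All 4 losartan ratios are below 0, but they fall into a large pair and a pair near 0. The dimmer probe, at the same site, gave -0.05, -4.02, -0.07 and -3.72 with losartan, and the levels of the 2 probes correlated at 1.00 over the 16 arrays.

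**Figure D4:**
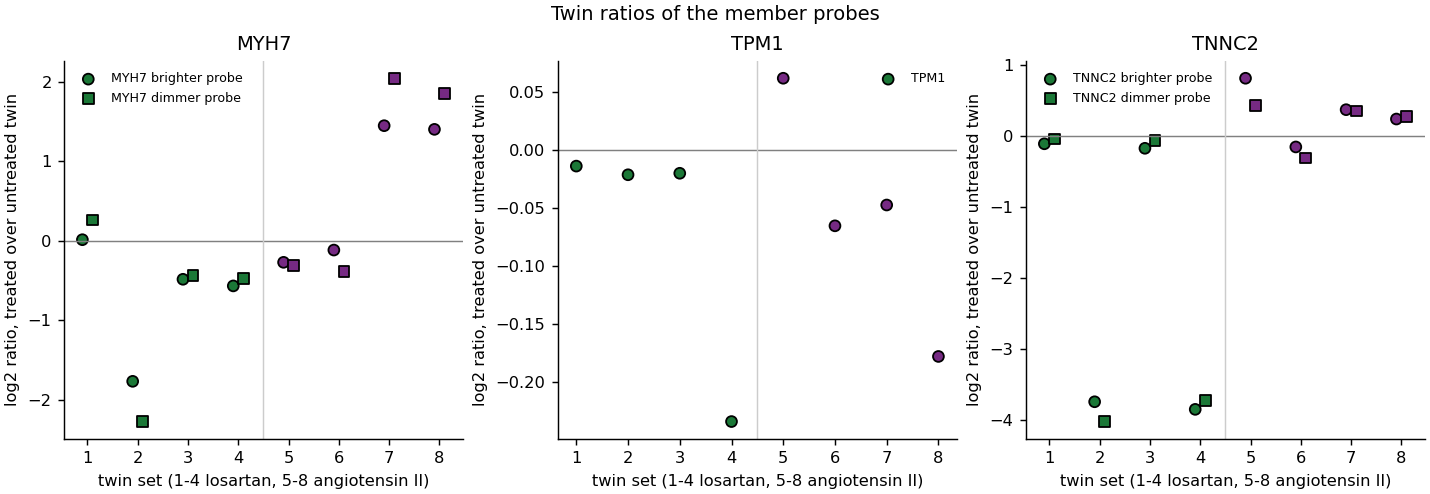
Log2 ratio of the treated over the untreated twin (vertical axes) in each of the 8 twin sets (horizontal axis, sets 1 to 4 losartan and 5 to 8 angiotensin II) for the probes of the 3 genes, circles for the brighter or sole probe and squares for the dimmer one. MYH7 is far from 0 in sets 2, 7 and 8, and TNNC2 in sets 2 and 4, while TPM1 stays between -0.23 and 0.06.

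The mean TNNC2 level was -2.31 ± 0.28 in losartan fetuses and -0.34 ± 2.24 in their untreated twins (SD, n = 4 each). It was -1.83 ± 0.60 in angiotensin II fetuses and -2.14 ± 0.56 in their untreated twins (SD, n = 4 each). In order of the means the groups run losartan, untreated twins of sets 5 to 8, angiotensin II, untreated twins of sets 1 to 4, and no step is larger than the larger SD of its neighbours. The estimate was -1.97 with losartan (SE 0.60, 95% interval -3.32 to -0.62, unadjusted p = 0.00885, limma adjusted p = 0.201). With angiotensin II it was 0.31 (SE 0.60, 95% interval -1.04 to 1.66, limma adjusted p = 0.83).

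The difference of the effects on TNNC2 was 2.28 (SE 0.85, limma adjusted p = 0.185), and the exact permutation test over the ratios gave p = 0.0571. The untreated twins of sets 5 to 8 differed from those of sets 1 to 4 by -1.80 (SE 0.92, limma adjusted p = 1.00). This contrast and the losartan estimate share the untreated fetuses of sets 1 to 4, the 2 high ones among them. The sets that carry the losartan estimate are known from their ratios, and without sets 2 and 4 it was -0.15, which describes the remaining sets and is no test. Without sets 2, 7 and 8 it was -1.38 (SE 0.67, limma adjusted p = 0.458). In slide 1 the 1 losartan fetus differed from the 3 untreated fetuses of its arm by -1.32, and in slide 2 the 3 losartan fetuses differed from the 1 untreated fetus, that of set 2, by -4.13, both with no twin block and given with no test. In the deposited value table the losartan estimate was -2.17 (limma adjusted p = 0.046).

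The TNNC2 levels were set beside the arrays that stood apart, and the part of the array in them was not tested. The untreated fetus of set 2 is on slide 2 and is one of the 3, while the untreated fetus of set 4 is on slide 1, with a corner signal of 14.60 within the range of the other arrays. The angiotensin II fetus of set 7, also one of the 3, had a TNNC2 level of -2.15. Over all 16 arrays the probe spanned 4.36 on the log2 scale, and 59 of the 8971 tested probes (0.658%) spanned more.

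Markers of skeletal muscle fibres were read in the same fetuses. Of 24 such genes, 6 are named on the array, and 5 of them (MYH1 and MYH2, fast myosin heavy chains, and MYOD1, MYOG and MYF5, regulators of the muscle lineage) were not well above background on any array. The sixth, MYL11, formerly MYLPF, the regulatory light chain of fast skeletal myosin, was well above background on all 16. Its level was 0.51 in the untreated fetus of set 2 and -0.03 in that of set 4. The 3 highest MYL11 levels of the 16 were 0.53 in the angiotensin II fetus of set 8, 0.51 in the untreated fetus of set 2 and 0.47 in the untreated fetus of set 8, and the lowest was -0.15. Both twins of set 8 also had the next highest TNNC2 levels after the untreated fetuses of sets 2 and 4. Its estimate was 0.01 with losartan (limma adjusted p = 0.99) and 0.03 with angiotensin II (limma adjusted p = 0.914). Of the 2 fetuses with high TNNC2, that of set 2 was thus among the highest in MYL11 and that of set 4 was not, and both fast heavy chains were not well above background in either.

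**Figure D5:**
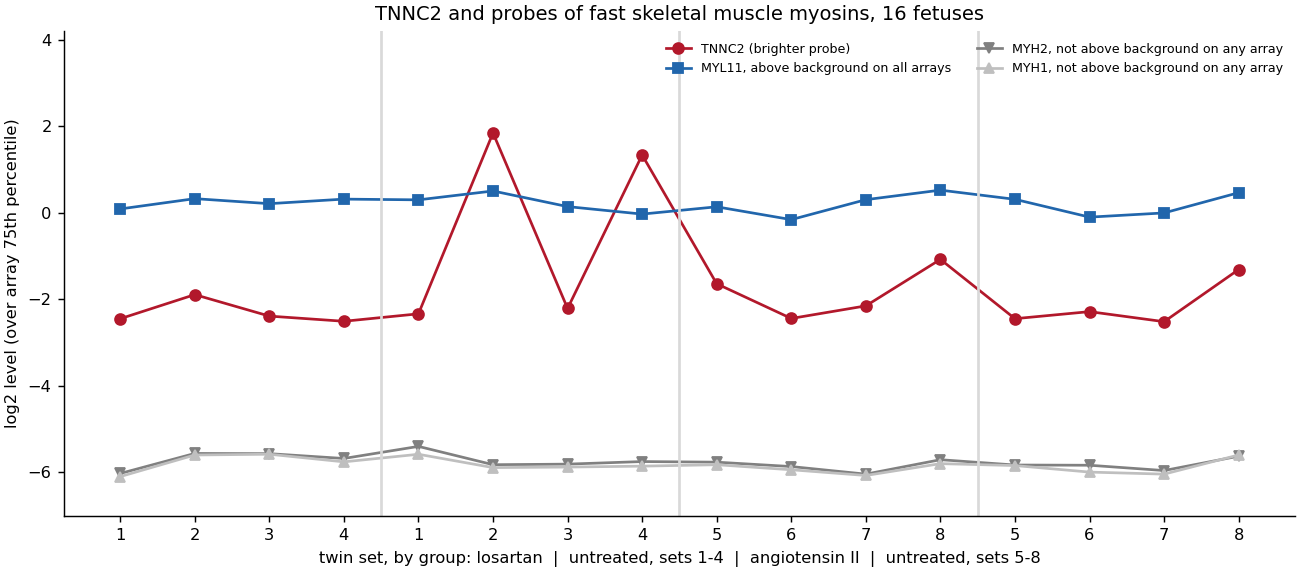
Log2 level (vertical axis, over the array's 75th percentile) of TNNC2, MYL11, MYH2 and MYH1 in the 16 fetuses (horizontal axis, twin sets by group). Each line is to be read along its own course, since heights of different probes are not comparable. TNNC2 reaches 1.85 and 1.34 in the untreated fetuses of sets 2 and 4, where MYL11 reads 0.51 and -0.03 and the heavy chains are not well above background.

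Other cell types were compared by the summed signal of their tested markers, in multiples of the array's 75th percentile. The 2 cardiomyocyte markers on the array were MB, the oxygen store myoglobin, and GJA1, a gap junction protein, of 19 listed genes. Their sum was 60.4 to 80.0 in losartan fetuses and 61.4 to 76.9 in their untreated twins, and 49.1 to 57.1 in angiotensin II fetuses and 58.3 to 64.4 in their untreated twins. MB made 98.9% to 99.6% of this sum, so it says little of GJA1, whose estimate was -0.40 with losartan (limma adjusted p = 0.445) and 0.41 with angiotensin II (limma adjusted p = 0.482). The MB probe in the sum had estimates of 0.07 with losartan (limma adjusted p = 0.836) and -0.18 with angiotensin II (limma adjusted p = 0.513). Another MB probe, not in the sum, had log2 levels of 5.52, 5.86, 5.85 and 5.97 in the angiotensin II fetuses of sets 5 to 8. Their untreated twins read 5.66, 5.86, 5.82 and 5.76 with it, so these groups overlap there. In the 2 fetuses with high TNNC2 the sum was 76.9 (set 2) and 69.0 (set 4). The other listed cardiomyocyte genes, such as TNNT2 and MYL2, have no named probe here. The tissue is as the sample labels give it, and it was not tested with these 2 markers.

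Smooth muscle markers (3 tested of 9: CNN1, MYL9 and MYLK) summed to 13.4 to 20.3 in losartan fetuses and 30.1 to 43.6 in their untreated twins, and to 52.2 to 76.1 in angiotensin II fetuses and 29.3 to 43.4 in their untreated twins. MYL9 made 56.3% to 80.3% of this sum and MYLK 1.31% to 9.72%. CNN1 (calponin, an actin-binding protein of smooth muscle) fell by 1.42 with losartan (SE 0.25, limma adjusted p = 0.025), and MYL9 (its myosin light chain) fell by 1.06 (SE 0.14, limma adjusted p = 0.00855). With angiotensin II their estimates were 1.09 and 0.93, and neither passed (limma adjusted p = 0.448 and 0.426). MYLK had -0.36 with losartan and -0.20 with angiotensin II (limma adjusted p = 0.798 and 0.863). Fibroblast markers (5 tested of 12: COL1A1, COL1A2, COL3A1, COL5A2 and DCN) summed to 31.6 to 34.4 in losartan fetuses and 32.6 to 50.3 in their untreated twins, the highest being set 2. They summed to 29.6 to 43.0 in angiotensin II fetuses and 32.3 to 37.5 in their untreated twins. DCN (decorin, a matrix proteoglycan) made 94.8% to 97.2% of this sum. The 4 collagen genes had estimates of -0.54 (COL1A2) to -0.26 (COL3A1) with losartan and -0.02 (COL3A1) to 0.71 (COL1A1) with angiotensin II. None of the 5 passed with either treatment in limma.

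Endothelial markers (2 tested of 8: PECAM1 and KDR) summed to between 3.07 and 4.30 over the 16 fetuses. PECAM1 made 92.6% to 96.4% of that sum. Leukocyte markers (2 tested of 12: CD14 and CD3E) summed to 0.18 to 0.26 in losartan fetuses and 0.18 to 0.33 in their untreated twins, and to 0.17 to 0.22 in angiotensin II fetuses and 0.20 to 0.24 in their untreated twins. CD14 was well above background on 10 of the 16 arrays and CD3E on 13. Their estimates were 0.17 and -0.48 with losartan and 0.02 and -0.26 with angiotensin II, and none passed in limma. HBB, the only erythroid gene of 9 with a named probe, ran from 3.12 to 25.8 in losartan fetuses and from 0.667 to 9.67 in their untreated twins. It ran from 0.381 to 9.67 in angiotensin II fetuses and from 1.24 to 13.6 in their untreated twins. The part of these cell types in the values of MYH7 and TNNC2 was not tested.

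Few partners of the 3 genes in the sarcomere can be read here. None of 12 other thick filament genes and none of 18 other thin filament genes has a named probe. Of 25 genes of the Z disc, titin and the cytoskeleton, 2 were tested and neither passed: FHL1, a LIM protein of muscle, had an estimate of -0.36 with losartan and 0.49 with angiotensin II (SE 0.13 each, limma adjusted p = 0.297 and 0.452), and CRYAB, a small chaperone of the Z disc, 0.13 and 0.11. Of 19 genes of calcium handling only CALM2, a calmodulin, was tested, at -0.22 with losartan and 0.24 with angiotensin II (SE 0.11 each, limma adjusted p = 0.457 and 0.481).

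Of 20 regulators of muscle genes, 8 are on the array, 2 were tested, and 5 (MYOD1, MYOG, MYF5, MSTN and THRA) were not well above background on any array. THRB, a thyroid hormone receptor, had estimates of -0.10 with losartan and 0.35 with angiotensin II, and PPARGC1A, a coactivator of mitochondrial genes, -0.03 and 0.13, and neither passed in limma. Of 7 genes that respond to load, RCAN1, which restrains calcineurin, had estimates of -0.07 with losartan and -0.06 with angiotensin II. CKB, brain creatine kinase, had 0.27 and -0.42 (limma adjusted p = 0.572 and 0.464). The median estimate over all tested probes was 0.01 with losartan and -0.03 with angiotensin II.

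The members did not move as one. Over the 13 arrays other than the 3 that stood apart, the brighter MYH7 probe and TPM1 correlated at 0.63, MYH7 and TNNC2 at 0.29, and TPM1 and TNNC2 at 0.22 (Pearson r across arrays that share slides and twin sets, a description). Over all 16 the values were 0.38, 0.53 and 0.33. Likeness was read over 488 other named genes, and the genes given for each member are the extremes of these 488, with no test. Among them, MYH7 was most alike over the 13 arrays to CDK4 (r = 0.83), BCAT2 (0.80), SLC39A3 (0.78), UBA1 (0.78) and KDR (0.77), with 0.51, 0.80, 0.71, 0.90 and 0.59 over all 16. PDIA5 (-0.80), CCND3 (-0.74) and LGMN (-0.71) were least alike, with -0.49, -0.09 and 0.51 over all 16.

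TPM1 was most alike over the 13 arrays to IGF1R (r = 0.86), PSMB7 (0.75), MRCL3 (0.74), SLC25A33 (0.74) and RAC1 (0.72), with 0.72, 0.54, 0.61, 0.73 and 0.52 over all 16. ASIP (-0.76), AGTR1, the type 1 angiotensin II receptor (-0.75), and LDHA (-0.71) were least alike, with -0.70, -0.70 and -0.71 over all 16. TNNC2 was most alike over the 13 arrays to TF (0.69), CD1D (0.68), CA11 (0.67), WT1 (0.62) and PSIP1 (0.59), and least to ETS2 (-0.63), CR2 (-0.58) and GAPDH (-0.56). The 13 arrays hold 1 of the fetuses with high TNNC2, that of set 4. Over all 16, r with TNNC2 was 0.81 for TF, 0.28 for CD1D, 0.58 for CA11, 0.67 for WT1 and 0.71 for PSIP1. For ETS2, CR2 and GAPDH it was -0.24, -0.25 and -0.42. TF spanned 1.39 on the log2 scale, against 4.36 for TNNC2.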

How the data were processed

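The authors deposited 1 scanner file per fetus with red-channel spot intensity values processed by Agilent Feature Extraction 10.7.3.1, per the file headers, and not scaled across arrays. Their deposited value table follows the natural log of each spot's mean signal, by a method not given in the sources used here, and was converted to log2 as an alternative. Marks for spots above background, saturated or outlying were used as deposited by the authors.

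Control and outlier spots were left out (3 to 9 outliers per array) and spots of 1 probe averaged. Of 15008 probes, 1668 carried a name, from the files or the reference table of assembly ARS-UI_Ramb_v3.0. Fits used limma 3.58.1 (R 4.3.3) on 16 arrays with twin set as a block and 1 term per treatment (6 residual degrees of freedom). The untreated arms were compared over 8 arrays. The labels give the twin sets, and twins' deviations from group means correlated at -0.04 to 0.53. The fit was tested on simulated data with independent noise and no term for slide or array. This does not show how it handles the arrays that stood apart. A gene was represented by its brightest tested probe. Named genes were all member probes, up to 4 tested genes per pathway list by smallest unadjusted p, and for each member the 5 most and 3 least alike genes. Tested markers, and genes not above background, were named beyond this rule after their values were seen. Members, lists and most alternatives were chosen with earlier results of these data known. Permutation tests used scipy, figures matplotlib.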

Additional observations from a re-analysis of the deposited data

Results flagged for a closer look

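In groups of 4, a fetus was marked where its gap to the nearest of the others was too large a share of the group's range (Dixon's 95% critical value), and chance marks about 1 group in 20. Over 30 such groups (levels and twin ratios of 5 probes) 5 were marked, and the probes of 1 gene are not independent. The MYH7 level of the untreated fetus of set 2 was far above the other untreated fetuses of sets 1 to 4, at 3.06 with the brighter probe and 2.34 with the dimmer one. The TPM1 level of the same fetus was marked too, at 6.31, against 6.15, 6.13 and 6.16 in the others of its group. The TPM1 ratio of set 4 was the lowest of the losartan arm, at -0.23, where the other 3 sets lie near 0. The dimmer TNNC2 probe was highest among losartan fetuses in set 2, at -2.14.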

How the results depend on the processing

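Of 612 values recomputed under alternatives, 558 kept their direction and their side of the threshold. Many could not change direction, since dropping the filter or a twin set of the other arm leaves a treatment estimate as it was. The count also holds both TNNC2 probes, which read 1 site, so it does not measure how firm the results are. The fit with no replicate block, which ignores the twin pairing, left every member call as it was: for losartan -0.70 (adjusted p = 0.686) for MYH7, -1.97 (0.439) for TNNC2 and -0.07 (0.884) for TPM1. Losses of a call could not occur, since no member probe passed. Outside the fits within 1 slide, gains came from the value table of the authors and from slide as a further block. The fits within 1 slide had no twin block, and slide 2 held 1 untreated fetus (set 2) of the losartan arm. Only their estimates are therefore given for the member probes. The lone fetus of slide 2 sets 3 of the 4 comparisons there. In slide 2 MYH7 read -1.89 with losartan, 1.32 with angiotensin II, 3.22 for the difference and -1.59 between untreated arms. TNNC2 read -4.13 with losartan, 4.39 for the difference and -3.73 between untreated arms. In the value table of the authors, 2 probes passed with losartan (MYH7 -1.05, TNNC2 -2.17; 4.84% of all) and 3 for the difference (19.3% of all; MYH7 1.61, TNNC2 2.44), and the exact p of MYH7 was 0.0286. With slide as a further block 1 passed for the difference (MYH7 1.74; 4.75% of all), and none with array row added (MYH7 1.49, adjusted p = 0.219; 1.14% of all). The cause was not tested.

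Signs turned as follows. MYH7 with angiotensin II read -0.093 (brighter) and -0.051 (dimmer) in slide 1 alone and -0.19 and -0.35 without sets 2, 7 and 8, where the dimmer probe's difference was -0.13 and its untreated contrast 0.18. Without sets 2 and 4 the untreated contrast was 0.015 and 0.082 for the MYH7 probes and 0.13 and 0.29 for the TNNC2 probes. TPM1 with angiotensin II read 0.055 in slide 1 alone. Its difference of effects read -0.015 with quantile normalization, -0.025 with the array median, -0.086 in the value table, -0.020 with slide, -0.040 without sets 2 and 4 and -0.0056 with array weights. The exact p for TPM1 was 0.943, 0.8 and 0.6 under the first 3. Leaving out 1 twin set at a time moved the untreated contrast of MYH7 from -0.61 to 0.0066 (brighter) and from -0.69 to 0.076 (dimmer), the TPM1 difference from -0.039 to 0.055 and its exact p from 0.571 to 0.8. MYH7 with losartan ran from -0.94 (without set 1) to -0.35 (without set 2). TNNC2 with losartan ran from -2.59 to -1.34, and it was smaller in size without set 2 or 4 than without set 1 or 3. Over the alternatives, tested probes past the threshold ranged from 0 to 548 with losartan (108 in the chosen fit), 0 to 353 with angiotensin II (0), 3 to 1879 for the difference (146) and 0 to 227 between untreated arms (0). Limits: the 2 fetuses that carry the TNNC2 values, the 3 arrays that carry those of MYH7 and 4 pairs an arm leave wide intervals.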

Other observations

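The height of TNNC2 in the untreated fetuses of sets 2 and 4 had no match among the other tested probes. Of 8971, only the 2 TNNC2 probes read over 1 log2 unit higher in both fetuses than in each of the other 14, by 2.43 (dimmer) and 2.41 (brighter), or 5.38-fold and 5.33-fold above the next highest fetus. These 2 fetuses were picked for this pattern after their values were seen, and no test was made on it. They lie on different slides, their losartan twins read -1.89 and -2.50 with the brighter probe, and both twins of set 8, treated -1.07 and untreated -1.31, were the next highest of all. The 2 probes read 1 site, so a second site of the transcript was not analysed here.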
